A study of Mus musculus with 15 samples.

Results

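The fatty acid binding and uptake genes described here are Fabp1, Fabp2, Fabp4, Fabp5, Fabp7, Cd36, Slc27a2, Slc27a4 and Slc27a5, 9 of the 45861 genes in the deposited table. They were selected by name, each symbol matching 1 entry of the table, and they were picked by someone who already knew results of these same libraries, so the measured differences between diets and genotypes may have helped to choose them. Their values are therefore given as a description, and the tests below place them among all genes tested without being independent evidence about the family. All 9 passed the filter of at least 1 FPKM (sequenced fragments divided by transcript length and library size) in at least 3 libraries, as did 13840 genes in all.

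RNA of snap-frozen liver from C57BL/6 mice was sequenced in 15 libraries. The mice were wild type (WT) or Fkbp5-/-, called KO here, and the labels name no other allele and no tissue-restricted driver. Fkbp5 encodes a chaperone partner of the glucocorticoid receptor. Chronic ethanol feeding was followed by a binge: the ethanol groups were brought to 5% ethanol, held there for 10 days and gavaged with 5 g/kg ethanol, and the control groups ate the control diet and were gavaged with maltose. Livers were collected 9 hours after the gavage. The WT mice gave 4 libraries on each diet, and the KO mice gave 3 on the control diet and 4 on ethanol. The diet and the gavage were given together and cannot be told apart, and the age of the mice is not given in the labels used here.

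Fatty acid binding proteins (FABPs) are small cytosolic proteins that hold long-chain fatty acids and other hydrophobic ligands and carry them between membranes, mitochondria, peroxisomes and the nucleus. CD36 is a membrane glycoprotein that takes up fatty acids and oxidised lipoproteins, and the SLC27 family, also called fatty acid transport proteins (FATPs), couples fatty acid entry to activation as acyl-CoA. In hepatocytes Fabp1 is the main cytosolic carrier, Slc27a2 and Slc27a5 are the main FATPs, and several of these genes are known targets of the lipid-sensing nuclear receptors PPAR alpha and PPAR gamma.

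The sequence before the start of 3 of the genes is shown because Fabp1 and Fabp7 had ethanol libraries below the control libraries in both genotypes, while Slc27a2, another abundant liver gene, had overlapping libraries. Each is the 250 bases upstream of the gene's start in RefSeq on GRCm38.p6, read 5′ to 3′ on the gene's strand. Fabp1 lies on the plus strand at chr6:71199629-71199878, Fabp7 on the plus strand at chr10:57784673-57784922 and Slc27a2 on the plus strand at chr2:126552774-126553023. Capitals mark matches to the first 2 motifs described after the sequences, DR1 and TAGGTCA, and matches to TATAAA are left in lower case.
Fabp1: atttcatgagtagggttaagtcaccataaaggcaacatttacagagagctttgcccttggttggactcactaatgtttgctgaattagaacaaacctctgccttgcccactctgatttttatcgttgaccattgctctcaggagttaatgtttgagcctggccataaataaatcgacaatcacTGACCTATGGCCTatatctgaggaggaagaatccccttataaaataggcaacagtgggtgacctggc
Fabp7: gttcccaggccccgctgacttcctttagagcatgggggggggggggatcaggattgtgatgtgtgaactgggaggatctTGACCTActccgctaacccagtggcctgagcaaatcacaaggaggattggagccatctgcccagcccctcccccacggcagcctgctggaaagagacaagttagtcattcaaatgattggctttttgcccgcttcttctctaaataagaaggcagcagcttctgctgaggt
Slc27a2: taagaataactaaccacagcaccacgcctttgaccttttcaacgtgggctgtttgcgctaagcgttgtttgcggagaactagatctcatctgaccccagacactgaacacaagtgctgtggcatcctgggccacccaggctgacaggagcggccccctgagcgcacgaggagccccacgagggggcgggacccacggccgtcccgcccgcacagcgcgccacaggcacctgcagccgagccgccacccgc

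Both strands of the 250 bases were searched for a direct repeat of AGGNCA with any 1 base between the copies (DR1), of the kind bound by PPAR and HNF4 receptors, for TAGGTCA, a core bound by the ROR and REV-ERB receptors, and for TATAAA. Fabp1 held a DR1 match on the reverse strand, read as TGACCTATGGCCT, from 67 to 55 bases before its start. The same bases held TGACCTA, the reverse complement of TAGGTCA, so these matches overlap. Fabp1 also had TATAAA from 30 to 25 bases before its start. Fabp7 had TGACCTA, on the reverse strand, from 171 to 165 bases before its start. Of 32851 promoter windows of the same length, 111 held the DR1 letters (0.338%), 734 held TAGGTCA (2.23%) and 4063 held TATAAA (12.4%). Fabp2, Slc27a2 and Slc27a4 held none of the 3 motifs in this window. The window available for Cd36, chr5:17835897-17836146 on the minus strand, held none either. It lies inside the gene's full span, chr5:17781690-17888959, so it does not show the bases upstream of that span. RefSeq windows were matched for 6 of the 9 genes, and Fabp4, Fabp5 and Slc27a5 are named only.

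The libraries held an estimated 22380000 to 28590000 fragments each, and no read counts were used. Fkbp5 averaged 8.55 and 42.9 FPKM in the WT control and WT ethanol groups and 0.995 and 4.01 FPKM in the KO control and KO ethanol groups. The title of WT ethanol replicate 4 says WT and its genotype field says KO. It had 45.2 FPKM of Fkbp5, between the other WT ethanol libraries (23.9 to 54.5 FPKM) and above all KO ethanol libraries (2.45 to 5.41 FPKM). It stayed in the WT group, and placing it with the KO ethanol libraries left 2 and 3 of the 9 genes called in WT and KO. The labels give no sex, and Xist, transcribed from the inactive X chromosome, stood at 10 FPKM or more in 2 of the 4 control and 2 of the 4 ethanol livers of WT mice, and in 2 of the 3 and 1 of the 4 of KO mice. KO control replicate 1 stood apart with 183764 FPKM of the small RNA gene Rn7s1, listed at 0 elsewhere, and results that change without it are given beside it. All 12 hepatocyte markers were above 1 FPKM in some library, and Alb was listed at 0 in KO ethanol replicate 3. The 10 pancreatic acinar markers summed to between 40.4 and 102 FPKM in WT control livers and to between 3.68 and 29.4 FPKM in all other livers, and all 10 were called lower with ethanol in WT. The part of such cells in the results below was not tested. In whole tissue, fewer cells of a type and less RNA per cell cannot be told apart.

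Fabp1 was lower with ethanol in both genotypes, and no transporter of the SLC27 family was called. In WT mice 2 of the 9 genes were called at an adjusted p under 0.05 (limma, Benjamini-Hochberg over all genes tested): Fabp1 fell and Fabp4 rose. In KO mice 3 were called, and Fabp1, Fabp5 and Fabp7 fell. Of all genes tested, 7.7% were called in WT and 4.13% in KO. Without KO control replicate 1 the counts were 3 in WT, where Fabp5 joined, and 1 in KO, Fabp1. Libraries of the 2 diets did not overlap for 4 of the 9 genes in WT, with Fabp1 and Fabp7 lower and Fabp4 and Cd36 higher, against 15.7% of all genes tested. In KO they did not overlap for Fabp1, Fabp5 and Fabp7, all lower, against 20.9% of all genes tested.

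**Figure D1:**
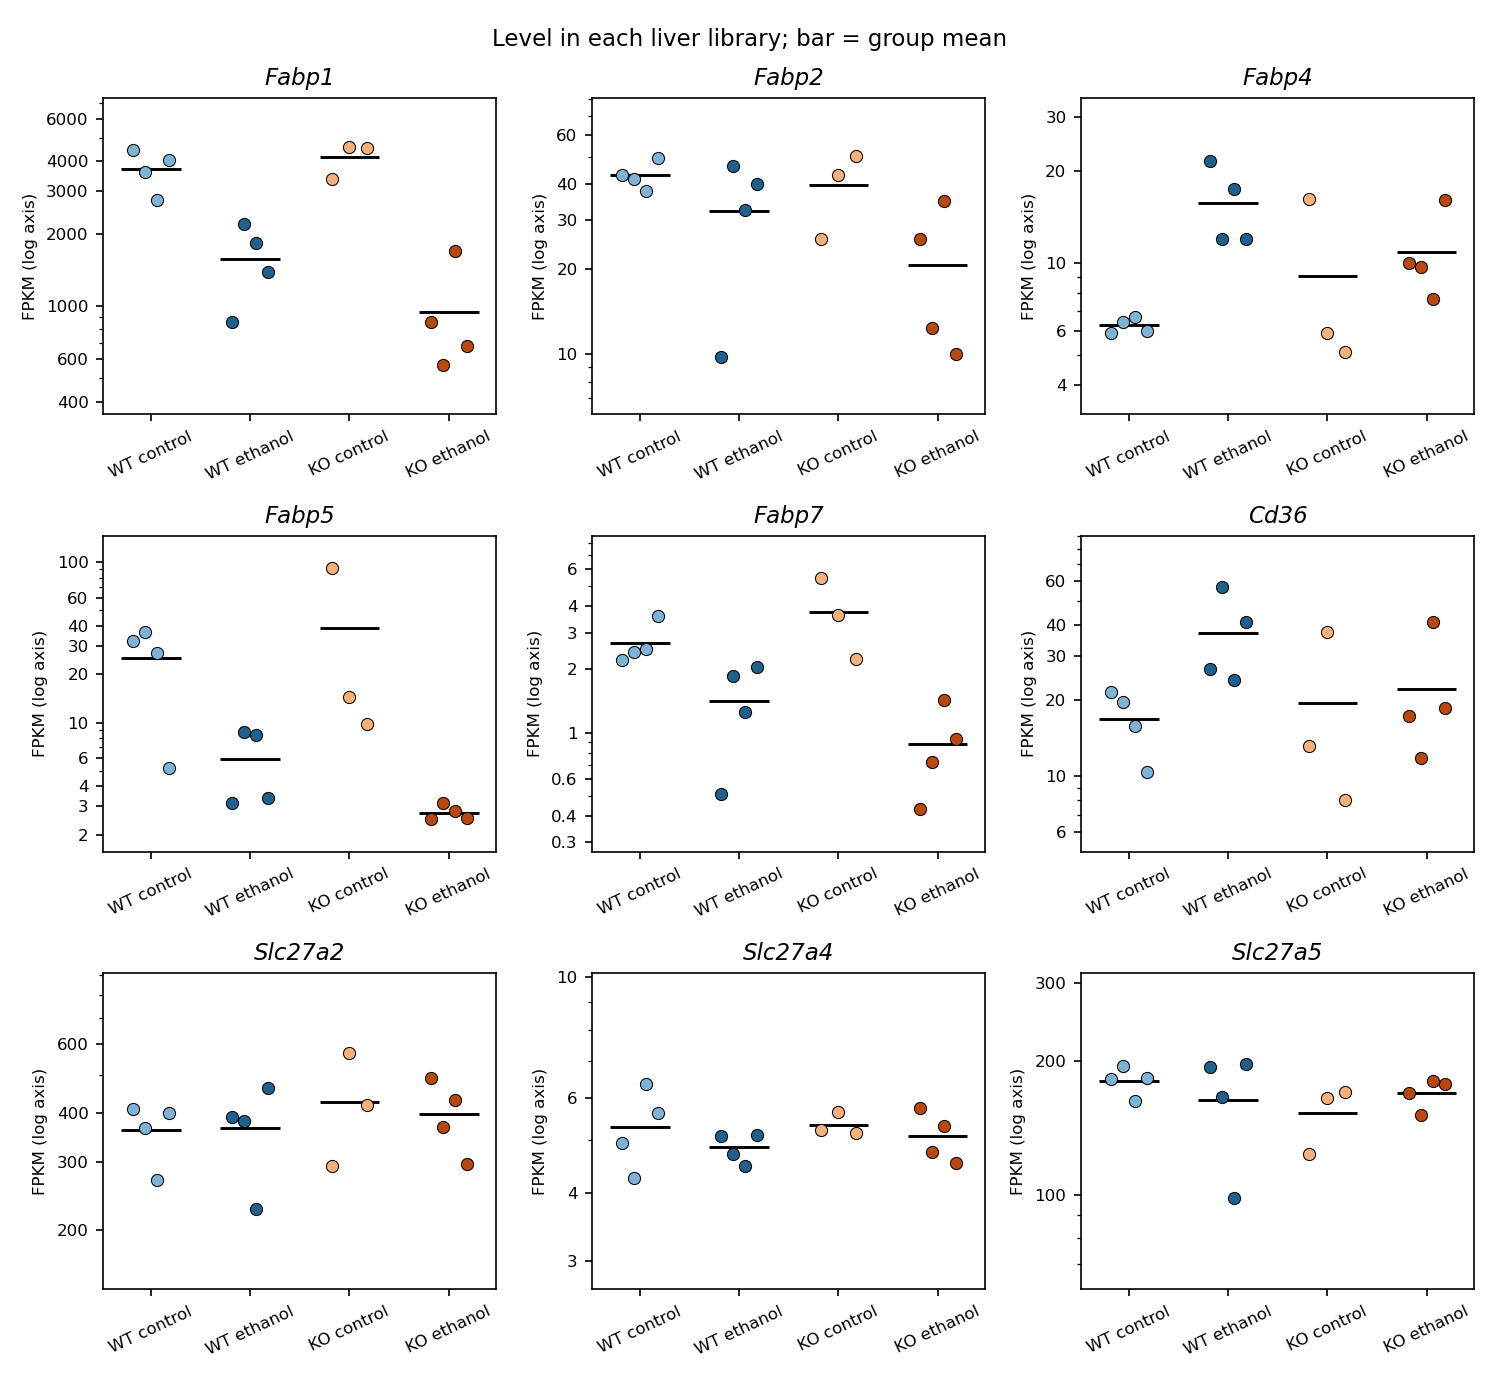
FPKM of each of the 9 genes on a log axis, with 1 point per liver library and a bar at the group mean, for WT libraries on the control (4) and ethanol (4) diets and KO libraries on the control (3) and ethanol (4) diets. Fabp1 and Fabp7 points on ethanol sit below all control points of the same genotype, Fabp4 and Cd36 points on ethanol sit above them in WT, and the Slc27 genes overlap.

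Fabp1, the liver fatty acid binding protein (chr6:71199888-71205023), was by far the most abundant of the 9 and held 95.6% to 98.6% of the summed FPKM of the 5 FABP genes in every library. WT control livers had 4439, 3598, 2761 and 4057 FPKM. WT ethanol livers had 857, 2201, 1830.2 and 1389 FPKM. Every ethanol library lay below every control library. The group means were 3714 ± 723 FPKM (SD, n = 4) and 1569 ± 579 FPKM (SD, n = 4), a log2 difference of -1.30 (SE 0.34, adjusted p = 0.0363, limma), or 2.47-fold lower on the FPKM + 1 scale. The WT call was lost without any of WT control replicates 1, 2 and 4, WT ethanol replicates 1 and 3 or KO ethanol replicate 1, with log2 differences of -1.41 to -1.04 and an adjusted p of up to 0.0981 in these 6 fits (limma).

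In KO livers the control values of Fabp1 were 3379.7, 4577 and 4522 FPKM. The KO ethanol values were 855, 568, 1686 and 679 FPKM. The groups did not overlap, and the highest ethanol value came from replicate 3, the Xist-expressing library of that group. The mean moved from 4160.0 ± 676 FPKM (SD, n = 3) to 947 ± 506 FPKM (SD, n = 4), with a log2 difference of -2.25 (SE 0.37, adjusted p = 0.00946, limma), or 4.77-fold lower. Leaving out any single library kept the KO call, with an adjusted p of at most 0.0459, and a fit of the KO groups alone gave an adjusted p of 0.0566. On ethanol, the KO livers stood 0.78 lower than the WT livers on the log2 scale (log2 difference -0.78, SE 0.34, unadjusted p = 0.0399, adjusted p = 0.989, limma), which did not pass the test. The difference between the ethanol effects of the 2 genotypes was -0.95 (SE 0.50, adjusted p = 0.9999, limma) and did not pass either. Within libraries with and without Xist the ethanol difference was -1.19 and -1.42 in WT and -1.22 and -2.71 in KO, on the log2 scale.

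The 3 tested genes whose centred log2 profile over the 15 libraries lay closest to that of Fabp1 were Cyp2c67 (root mean square difference 0.41), Crot (0.44) and Nat8f1 (0.44), against a spread of 1.02 of Fabp1 about its own mean. Cyp2c67 belongs to a cluster of similar cytochrome P450 genes, so its level is uncertain. Crot encodes a peroxisomal carnitine acyltransferase and averaged 129.9 and 71.2 FPKM on the control and ethanol diets in WT livers, and 137 and 52.6 FPKM in KO livers.

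Fabp2, known as the intestinal FABP (chr3:122895072-122899506), was present in every liver. WT control livers had 43.3, 41.8, 38.0 and 49.6 FPKM and WT ethanol livers 9.82, 46.6, 32.5 and 40.2 FPKM. KO control livers had 25.6, 43.3 and 50.5 FPKM and KO ethanol livers 25.7, 12.4, 34.8 and 10.0 FPKM. The diets overlapped in both genotypes, and the 3 lowest values, 9.82 FPKM in WT and 12.4 and 10.0 FPKM in KO, came from ethanol libraries. Log2 differences were -0.60 in WT (SE 0.45, adjusted p = 0.425, limma) and -1.02 in KO (SE 0.49, adjusted p = 0.245, limma), neither called. Without WT ethanol replicate 1, the library at 9.82 FPKM, the WT difference was -0.13 (SE 0.36, adjusted p = 0.872, limma). None of 10 intestinal epithelial markers reached 1 FPKM in any library, and Cdx1, Cdx2 and Fabp6 were listed at 0 in all.

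The spread of Fabp2 on ethanol went with Xist. Among WT ethanol livers the 2 with Xist had 40.2 and 46.6 FPKM and the 2 without had 9.82 and 32.5 FPKM. In KO ethanol livers the library with Xist had 34.8 FPKM and the 3 without had 10.0 to 25.7 FPKM. Within the libraries with Xist, ethanol and control differed by 0.024 in WT and 0.062 in KO on the log2 scale, and within those without Xist by -1.22 and -1.71. These are groups of 1 to 3 libraries split on a measured gene, and the difference between them was not tested.

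**Figure D2:**
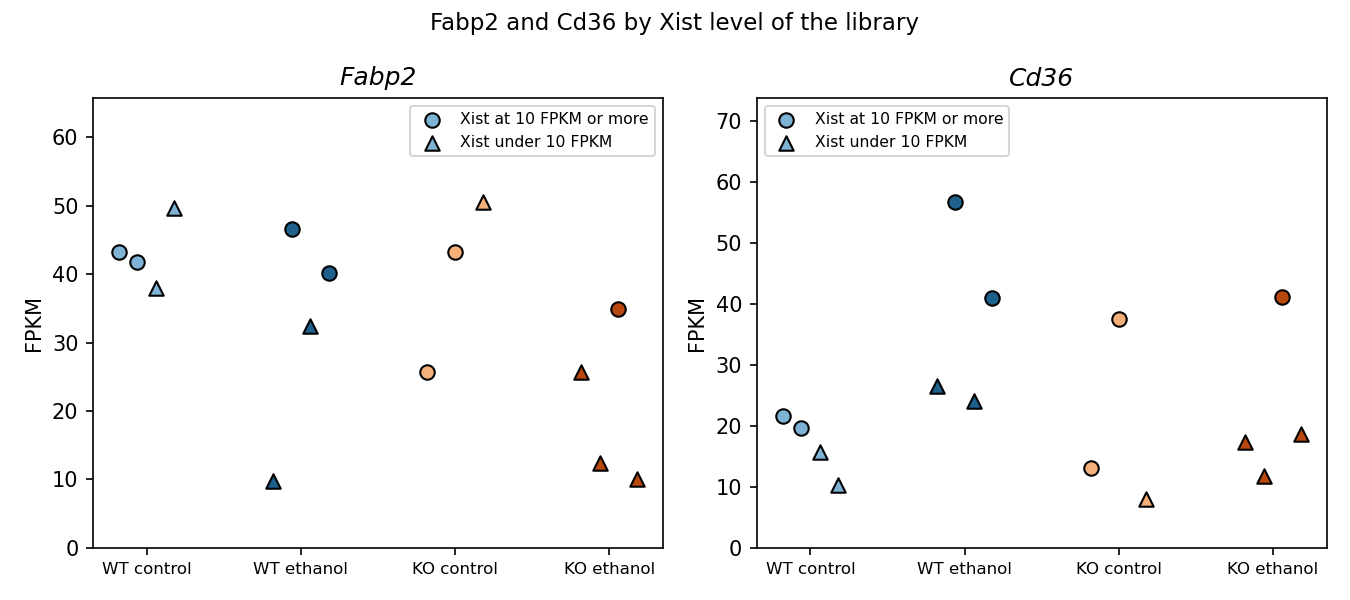
FPKM of Fabp2 and Cd36 on linear axes by group, with 1 point per library, circles for libraries with Xist at 10 FPKM or more and triangles for the others. In each of the 4 groups every circle lies above every triangle for Cd36, and for Fabp2 this holds in both ethanol groups, where the triangles reach 9.82 FPKM in WT and 10.0 FPKM in KO.

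Fabp4, the FABP of adipocytes, macrophages and capillary endothelium (chr3:10204342-10208602), was low and even in WT control livers, at 5.90, 6.44, 6.67 and 6.03 FPKM. WT ethanol livers had 21.6, 12.0, 17.5 and 12.0 FPKM. Every ethanol library was higher, and the means were 6.26 ± 0.358 and 15.8 ± 4.69 FPKM (SD, n = 4 each). The log2 difference of 1.17 (SE 0.30, adjusted p = 0.0347, limma) passed the test. It no longer passed without any of the 4 WT control libraries or without WT ethanol replicates 1 or 3, with log2 differences of 1.01 to 1.28 and an adjusted p of up to 0.0969 over all single omissions.

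KO control livers had 16.2, 5.90 and 5.14 FPKM of Fabp4, and KO ethanol livers 10.0, 9.72, 7.66 and 16.1 FPKM. Replicate 1 of the KO control group stood as high as the highest ethanol library, while the other KO control libraries lay below all 4 ethanol libraries. The KO difference was 0.35 (SE 0.33, adjusted p = 0.560, limma), and without that library it was 0.82 (SE 0.26, adjusted p = 0.130, limma). The difference between the genotypes' ethanol effects was -0.81 (SE 0.44, adjusted p = 0.9999, limma), or -0.34 (SE 0.33) without KO control replicate 1, and did not pass. In libraries with and without Xist, the log2 ethanol difference of Fabp4 was 0.85 and 1.48 in WT and -0.33 and 1.04 in KO. The KO control libraries with Xist include replicate 1, at 16.2 FPKM. The difference between the Xist classes was not tested.

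Beside the rise of Fabp4 in WT, the adipocyte markers Adipoq, Lep, Retn, Plin1 and Cidea stayed under 1 FPKM in all 15 libraries, and 2 of 7 adipocyte markers reached 1 FPKM in some library. The adipocyte marker sum was 4.66 to 15.2 FPKM in WT control livers, where Cfd alone gave 11.4 FPKM in replicate 3, and 2.38 to 4.37 FPKM in WT ethanol livers. The 11 endothelial markers summed to 52.7 to 95.2 FPKM in WT control and 58.7 to 77.2 FPKM in WT ethanol livers. Their median log2 difference in WT was -0.17, on the side of a fall. Lyve1, of lymphatic and sinusoidal endothelium, rose and was the only 1 of them called (log2 difference 1.82, adjusted p = 0.0186, limma). The 9 tested Kupffer cell and macrophage markers summed to 95.2 to 214 FPKM in WT control and 53.6 to 129.9 FPKM in WT ethanol livers, with none called. KO control replicate 1 and KO ethanol replicate 4 had the highest Fabp4 of their groups, 16.2 and 16.1 FPKM. They also had the highest sums of these markers there, 325 and 119 FPKM. KO ethanol replicate 3 had a sum of 93.7 FPKM with the lowest Fabp4 of its group, 7.66 FPKM. The part of these cell types in the Fabp4 differences was not tested. Genes with the nearest profile to Fabp4 were Heg1 (root mean square difference 0.25), an endothelial membrane protein, Klf6 (0.30), a zinc-finger transcription factor, and Efhd2 (0.31), a calcium-binding protein.

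Fabp5, the epidermal FABP, which macrophages also express (chr3:10012585-10016610), varied most of the 9, by 36.4-fold between the lowest and the highest library. WT control livers had 32.0, 36.8, 27.0 and 5.22 FPKM and WT ethanol livers 3.17, 8.75, 8.34 and 3.38 FPKM. Replicate 4 of the WT control group lay within the ethanol range, and the other 3 lay above it. The WT log2 difference was -1.76 (SE 0.65, adjusted p = 0.112, limma), which did not pass, and without WT control replicate 4 it was -2.35 (SE 0.58, adjusted p = 0.0467, limma).

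KO control livers had 91.3, 14.5 and 9.77 FPKM of Fabp5. KO ethanol livers had 2.51, 3.14, 2.81 and 2.54 FPKM, close together and below all 3 control values. The log2 difference was -2.73 (SE 0.70, adjusted p = 0.0470, limma), or 6.65-fold lower on the FPKM + 1 scale. This call was lost in 11 of the 15 fits that leave out 1 library, and without KO control replicate 1 the difference was -1.79 (SE 0.60, adjusted p = 0.155, limma). Over all 27 alternatives it held in 9, and with the Xist class as a term the adjusted p was 0.0743 (limma). The isoform rna16025 held 92.2% to 100% of Fabp5 FPKM in every library, and the similar gene Fabp5l2 was listed at 0 in all.

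Macrophage markers moved with part of this pattern. KO control replicate 1, with 91.3 FPKM of Fabp5, also had the highest summed FPKM of Kupffer cell and macrophage markers, 325, against 99.9 and 66.8 in the other KO control libraries. KO ethanol livers summed to 33.4, 29.4, 93.7 and 119 FPKM of these markers, so replicates 3 and 4 had marker sums within the control range while Fabp5 was 2.81 and 2.54 FPKM. In WT control replicates 1 to 4 the sums were 95.2, 104, 214 and 138 FPKM, with 32.0, 36.8, 27.0 and 5.22 FPKM of Fabp5. In WT ethanol replicates 1 to 4 the sums were 53.56, 106.9, 53.95 and 129.9 FPKM, with 3.17, 8.75, 8.34 and 3.38 FPKM of Fabp5. The part of these cells in the Fabp5 difference was not tested. The nearest profiles to Fabp5 were those of Oas2 (root mean square difference 0.83), Gbp10 (0.83) and Gbp6 (0.84), interferon-inducible genes, against a spread of 1.44 of Fabp5 about its own mean.

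**Figure D3:**
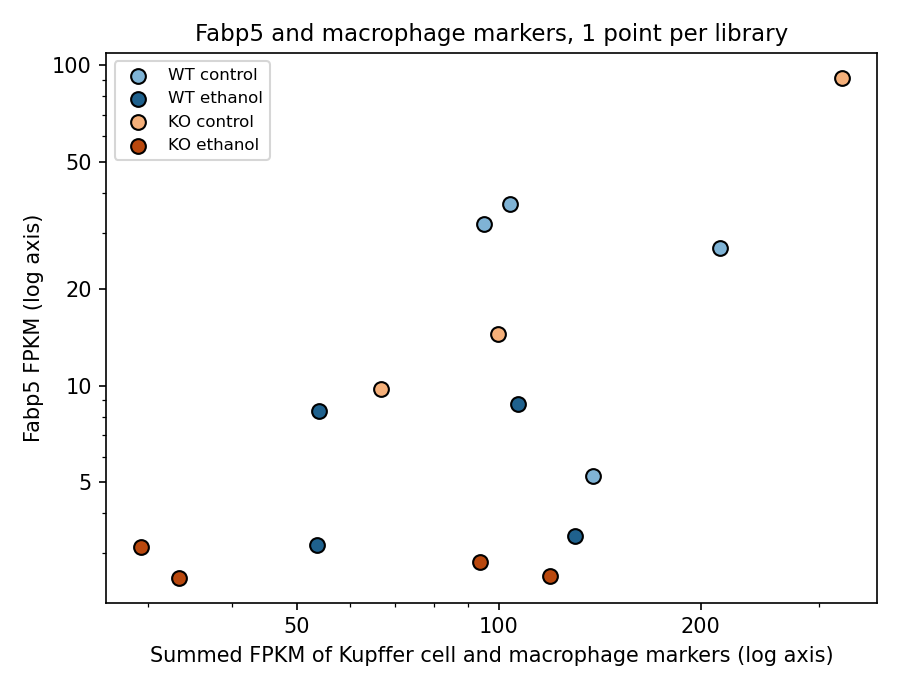
Fabp5 FPKM against the summed FPKM of the Kupffer cell and macrophage markers, both on log axes, with 1 point per library. KO control replicate 1 is highest on both axes, at 91.3 and 325 FPKM, and the 4 KO ethanol libraries lie between 2.51 and 3.14 FPKM of Fabp5 across marker sums of 29.4 to 119 FPKM.

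Fabp7, the brain FABP (chr10:57784923-57788450), was the lowest of the 9 and rests on at most about 8.69 to 102 fragments per library. WT control livers had 2.21, 2.44, 2.49 and 3.61 FPKM and WT ethanol livers 0.509, 1.87, 1.26 and 2.06 FPKM. KO control livers had 5.45, 3.65 and 2.24 FPKM and KO ethanol livers 0.433, 0.728, 1.43 and 0.936 FPKM. In both genotypes every ethanol value was below every control value, by a narrow gap in WT. The WT difference of -0.64 (SE 0.25, adjusted p = 0.129, limma) did not pass, and the KO difference of -1.32 (SE 0.27, adjusted p = 0.0230, limma) did. The KO call was lost without KO control replicate 1 (-1.07, adjusted p = 0.0770, limma) and without KO control replicate 2 or KO ethanol replicates 1 or 2, with an adjusted p of up to 0.0897. The genotypes' effects differed by -0.67 (SE 0.37, adjusted p = 0.9999, limma), or by -0.43 (SE 0.37) without KO control replicate 1, and neither passed. Within libraries with and without Xist the ethanol difference was -0.17 and -1.12 in WT and -1.17 and -0.94 in KO. All 6 Schwann cell and glia markers stayed under 1 FPKM in every library. The 9 tested Kupffer cell and macrophage markers had median log2 differences of -0.70 in WT and -1.12 in KO, with none called. KO control replicate 1 had both the highest Fabp7 and the highest sum of these markers, 5.45 and 325 FPKM. KO ethanol replicate 4 had a sum of 119 FPKM, within the KO control range, with 0.936 FPKM of Fabp7. The part of these cells in the Fabp7 difference was not tested. The nearest profiles to Fabp7 were those of Colec10, a collectin of the liver, Rgl1 and Ifi203, each at a root mean square difference of 0.22.

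Cd36 (chr5:17781690-17888959) was higher in all 4 WT ethanol livers than in any WT control liver. The WT control values were 21.6, 19.7, 15.8 and 10.4 FPKM and the WT ethanol values 26.6, 56.7, 24.1 and 41.0 FPKM. KO control livers had 13.1, 37.5 and 8.01 FPKM and KO ethanol livers 17.4, 11.8, 41.1 and 18.6 FPKM, and these overlapped. Log2 differences were 1.06 in WT (SE 0.45, adjusted p = 0.161, limma) and 0.31 in KO (SE 0.49, adjusted p = 0.750, limma), neither called.

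Libraries with Xist had more Cd36 in every group. In WT control livers the values were 19.7 and 21.6 FPKM with Xist and 10.4 and 15.8 FPKM without, and in WT ethanol livers 41.0 and 56.7 FPKM with and 24.1 and 26.6 FPKM without. KO control livers had 13.1 and 37.5 FPKM with Xist and 8.01 FPKM without, and KO ethanol livers 41.1 FPKM with and 11.8 to 18.6 FPKM without. Within libraries with and without Xist the ethanol difference on the log2 scale was 0.85 and 0.89 in KO, next to 1.19 and 0.93 in WT. The KO values set 2 control libraries against 1 ethanol library with Xist, and 1 against 3 without. The part of this uneven split in the KO difference was not tested. With the Xist class as a term in the fit, the WT difference of 1.06 had an SE of 0.28 and an adjusted p of 0.0322 (limma), and the KO difference was 0.73 (SE 0.32, adjusted p = 0.218, limma), not called. Of the 11 deposited isoforms of Cd36, 3 different ones led in different libraries, with 28.7% to 76.3% of the gene's FPKM, so no single transcript stands for the gene. Its nearest profiles, of Sybu, Bmper and Fam19a2 (root mean square difference 0.42 to 0.43), belong to genes of low FPKM.

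The SLC27 transporters had overlapping libraries on the 2 diets in both genotypes. Slc27a2 (chr2:126553024-126588243), the very-long-chain acyl-CoA synthetase of peroxisomes and the endoplasmic reticulum, averaged 361 ± 63.8, 365 ± 99.8, 427 ± 139 and 396 ± 83.7 FPKM in the groups of WT on control, WT on ethanol, KO on control and KO on ethanol (SD, n = 4, 4, 3 and 4). Its single values ran from 226 FPKM in WT ethanol replicate 3 to 569.9 FPKM in KO control replicate 2. Slc27a5 (chr7:12988346-12998192), which activates bile acids for conjugation as well as long-chain fatty acids, averaged 181 ± 13.2, 164 ± 45.9, 153 ± 25.8 and 169.5 ± 13.2 FPKM in the same groups. WT ethanol replicate 3 was its lowest library too, at 98.3 FPKM. Slc27a4 (chr2:29802680-29817522), a widely expressed FATP, varied least, between 4.25 and 6.36 FPKM over all 15 libraries, and averaged 5.30 ± 0.904, 4.86 ± 0.304, 5.34 ± 0.257 and 5.09 ± 0.541 FPKM.

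None of the 3 was called in any of the 5 comparisons. The 95% intervals of the ethanol difference (log2, FPKM + 1) ran from -0.57 to 0.54 in WT and -0.68 to 0.52 in KO for Slc27a2, from -0.61 to 0.23 and -0.30 to 0.61 for Slc27a5, and from -0.32 to 0.13 and -0.30 to 0.18 for Slc27a4. Among the 9 genes the closest pair of profiles was Slc27a2 and Slc27a5 (root mean square difference 0.26). The genes nearest to Slc27a2 were Acad11, a peroxisomal and mitochondrial acyl-CoA dehydrogenase (0.13), Dpp4 (0.14) and Ddo (0.15). Those nearest to Slc27a5 were Myh14, Pink1 and Slc6a12 (0.096 to 0.12), and those nearest to Slc27a4 were Dnaaf5, Dnlz and Phf6 (0.070 to 0.083).

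**Figure D4:**
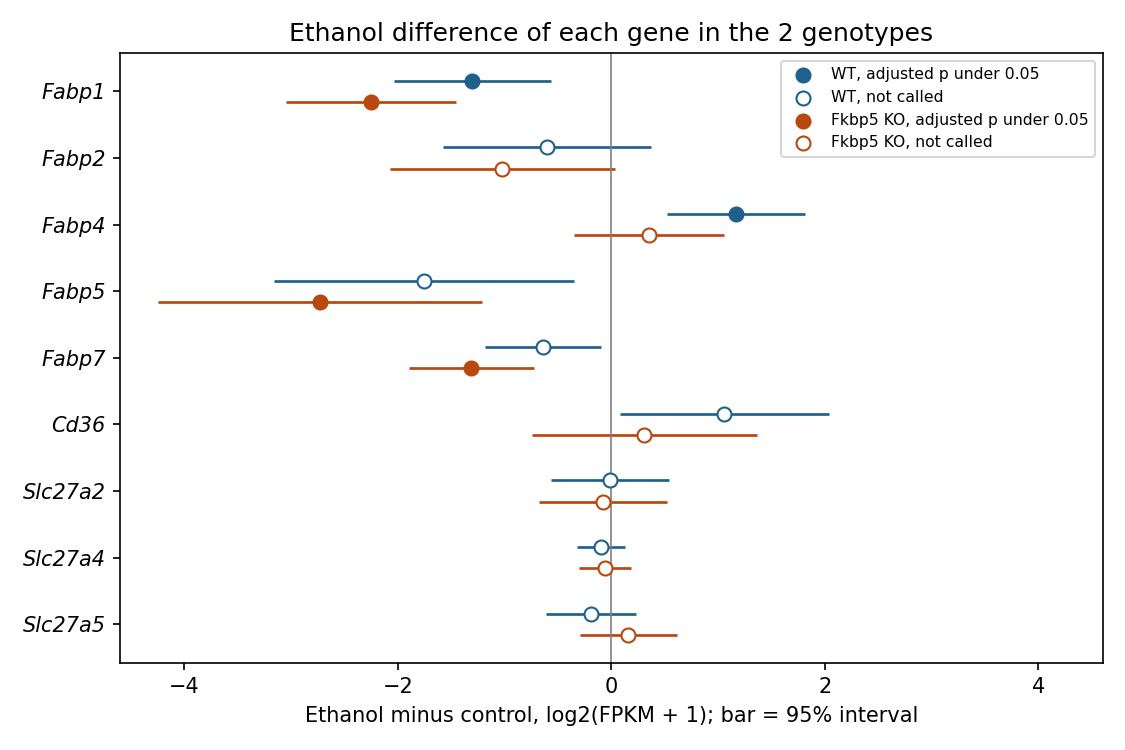
Ethanol minus control difference of each gene on the log2(FPKM + 1) scale, with its 95% interval, in WT (blue) and Fkbp5 KO (orange) livers, filled where the adjusted p over all genes is under 0.05. Filled points are Fabp1 and Fabp4 in WT and Fabp1, Fabp5 and Fabp7 in KO, and the narrowest intervals, those of Slc27a4, include 0.

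Between genotypes none of the 9 genes was called. On the control diet their KO minus WT log2 differences ran from -0.25 to 0.33 with 0 unadjusted p-values under 0.05, and 0.181% of all genes were called. On ethanol they ran from -0.78 to 0.14 with 1 unadjusted p under 0.05, that of Fabp1, and 0.101% of all genes were called. In the test of whether the ethanol effect differed between genotypes they ran from -0.98 to 0.35 with 0 unadjusted p-values under 0.05, and 0.0% of all genes were called (0 of 13840, with 553 at an unadjusted p under 0.05, limma). The mean differences of the 2 ethanol comparisons use different libraries, and each genotype comparison shares its libraries with them. All of these tests share a common estimate of the spread of each gene, taken over the 15 libraries. No single omission of a library brought any of the 9 past the threshold in these 3 comparisons.

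By mean FPKM, which is per length, Fabp1, Slc27a2 and Slc27a5 held the first 3 places in all 4 groups, with no overlap between neighbours. In WT control livers Fabp2 came next, followed by Fabp5, Cd36, Fabp4, Slc27a4 and Fabp7, with overlap between Fabp5 and Cd36 and between Fabp4 and Slc27a4. In WT ethanol livers the order after Slc27a5 was Cd36, Fabp2, Fabp4, Fabp5, Slc27a4 and Fabp7. The neighbours that overlapped there were Cd36 and Fabp2, Fabp2 and Fabp4, and Fabp5 and Slc27a4. KO control livers kept the order of WT control livers, with overlap between all neighbours from Fabp2 on. KO ethanol livers had the same first 6 genes as WT ethanol livers, then Slc27a4, Fabp5 and Fabp7. The ratio of Fabp1 to Fabp2 FPKM averaged 85.8 ± 12.5 and 56.4 ± 22.5 in WT livers on the control and ethanol diets (SD, n = 4 each), and 109.0 ± 21.4 (SD, n = 3) and 48.8 ± 14.2 (SD, n = 4) in KO livers.

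The rest of the family was close to silent in these livers. Of the 8 other FABP and FATP genes listed, Slc27a1 alone passed the filter, at 1.59 to 2.10 FPKM by group, and was not called. Fabp6 and Pmp2 were listed at 0 in all libraries, and the highest values of Fabp3, Fabp9, Fabp12, Slc27a3 and Slc27a6 in any library were 0.543, 0.846, 1.14, 0.501 and 0.133 FPKM.

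Among 16 acyl-CoA synthetases and acyl-CoA carriers, which act on fatty acids after their entry, 14 were tested. In WT 0 rose and 3 fell, and in KO 0 rose and 1 fell, with median log2 differences of -0.40 and -0.15 against -0.036 and -0.095 over all genes tested, of which 7.7% and 4.13% were called. Dbi, the acyl-CoA binding protein, fell in both: from 482 ± 38.6 to 268 ± 51.4 FPKM in WT (log2 difference -0.86, adjusted p = 0.00596, limma) and from 382 ± 36.0 to 204 ± 16.2 FPKM in KO (-0.90, adjusted p = 0.0105). Acbd5, an acyl-CoA binding protein of the peroxisomal membrane, fell in WT from 45.7 to 24.7 FPKM (-0.86, adjusted p = 0.0180, limma) and stood at 43.9 and 25.9 FPKM in KO (-0.74, adjusted p = 0.0547). Acsl3, a long-chain acyl-CoA synthetase of lipid droplets, fell in WT from 6.94 to 3.49 FPKM (-0.86, adjusted p = 0.0434, limma) and stood at 3.29 and 3.43 FPKM in KO (0.011, adjusted p = 0.984).

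Of 15 genes of lipoprotein lipolysis and membrane uptake, 14 were tested. In WT 1 rose and 1 fell, and in KO 2 rose and 0 fell, with medians of -0.097 and -0.090, against -0.036 and -0.095 over all genes tested, of which 7.7% and 4.13% were called. Leaving out single libraries, the WT count ran from 1 to 3. Gpihbp1, which anchors lipoprotein lipase on capillary endothelium, rose from 8.10 to 18.5 FPKM in WT (1.14, adjusted p = 0.00871, limma) and from 8.63 to 16.6 FPKM in KO (0.87, adjusted p = 0.0480). Mfsd2a, a lysophospholipid transporter, rose in KO from 20.7 to 66.1 FPKM (1.59, adjusted p = 0.0429, limma) and stood at 29.8 and 58.5 FPKM in WT (1.07, adjusted p = 0.0912). Lipg, endothelial lipase, fell in WT from 4.16 to 1.16 FPKM (-1.37, adjusted p = 0.0240, limma) and stood at 3.92 and 1.45 FPKM in KO (-0.95, adjusted p = 0.136). The KO count of this list was 0 without KO control replicates 1, 2 or 3 and without several other single libraries.

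Of 26 genes listed as possible transcriptional regulators of the family, all were tested. Whether each of them acts on the 9 genes was not tested. In WT 0 rose and 4 fell, and in KO 0 rose and 5 fell, with medians of -0.13 and -0.19 against the same -0.036 and -0.095 over all genes. Of all genes tested, 7.7% were called in WT and 4.13% in KO. Nr1d1, the REV-ERB alpha repressor of the circadian clock, fell from 32.0 to 4.24 FPKM in WT (-2.74, adjusted p = 0.00987, limma) and from 37.5 to 4.65 FPKM in KO (-3.25, adjusted p = 0.0105). Dbp, a clock-controlled activator, fell from 24.5 to 2.99 FPKM in WT (-2.67, adjusted p = 0.0249, limma) and from 29.7 to 4.50 FPKM in KO (-2.73, adjusted p = 0.0433). Nr1d2, the paralog of Nr1d1, also fell in both, as did Cebpa, a hepatocyte differentiation factor, by -1.15 and -1.17 (adjusted p = 0.0291 and 0.0487, limma). Ppara, the receptor PPAR alpha, fell in KO from 46.3 ± 9.11 to 18.3 ± 9.34 FPKM (-1.41, adjusted p = 0.0312, limma) and stood at 42.1 ± 8.43 and 21.5 ± 3.92 FPKM in WT (-0.93, adjusted p = 0.0715). Leaving out single libraries, the list's count ran from 1 to 9 in WT and from 1 to 8 in KO.

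Of 24 targets of PPAR alpha outside the family, all were tested and 0 were called in either genotype (limma, with adjusted p of at least 0.164 and 0 and 1 genes at an unadjusted p under 0.05 in WT and KO), with median log2 differences of 0.023 in WT and -0.25 in KO. Over all genes tested the medians were -0.036 and -0.095, and 7.7% and 4.13% were called. The lowest p-values belonged to Cyp4a10 in WT (1.90, adjusted p = 0.225, limma) and to Acaa1b, a peroxisomal thiolase, in KO (-1.34, adjusted p = 0.164). Cpt1a, the carnitine palmitoyltransferase of the outer mitochondrial membrane, stood at 80.0 and 80.6 FPKM in WT and at 92.4 and 73.8 FPKM in KO. None of the other FABP, acyl-CoA, lipolysis, regulator or PPAR alpha target genes was called between genotypes or in the test of different ethanol effects (limma, with 0 to 2 genes per list and comparison at an unadjusted p under 0.05).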

How the data were processed

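Liver RNA was measured in 15 libraries. Per the submitters' processing notes, the authors used TopHat, Cufflinks and Cuffdiff with mm9, versions not given in the sources used here, and deposited FPKM per gene and per isoform. Gene positions in the tables match GRCm38 in RefSeq and are given as GRCm38. Without counts, limma 3.58.1 (R 4.3.3) was run on log2(FPKM + 1) (4 group means over all 15 libraries, eBayes with trend, 5 contrasts, 2-sided, Benjamini-Hochberg over the 13840 genes that reached 1 FPKM in 3 or more libraries, called under 0.05). Adding 1 understates changes of low genes. Python 3.11.15 did the rest. Depth was estimated from the FPKM that 1 fragment gives in genes of 1 isoform longer than 1500 bases, so depth limits mainly Fabp7.

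The members and gene lists were chosen with earlier results of these data known. Named genes are the 9 members, up to 4 called genes per list and comparison by lowest p, with the lowest p where none was called, and the 3 nearest profiles per member. Fabp5l2, Cpt1a, Lyve1 and the cell type markers' single values were named after its values were seen. Library titles give the group and a running number. Each library was taken as a separate liver, and p-values measure the spread between libraries. Isoform FPKM gave transcript shares. Alternatives were pseudocounts of 0.1 and 0.5, no filter or 5 FPKM, 3 scalings, library weights, a fit of the compared groups alone, a replicate block, an Xist term, WT ethanol replicate 4 as KO, and leaving out each library.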

Additional observations from a re-analysis of the deposited data

How the results depend on the processing

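Under the alternatives, the ethanol differences of all members were followed, with the genotype difference of Fabp1 on ethanol. The interactions of Fabp1, Fabp4 and Fabp7 were followed too. Of these values, 524 kept direction and side of the threshold, 42 lost and 4 gained the call, and 18 changed sign. The other genotype differences and interactions are not in these counts. The 524 include differences that were not called in the main fit and stayed uncalled. In WT the call of Fabp1 held in 16 of 27 alternatives and that of Fabp4 in 20 of 27. In KO the call of Fabp1 held in 26 of 27, that of Fabp5 in 9 of 27 and that of Fabp7 in 21 of 26. The count of members called in WT was 0 with no filter, 1 each with quantile normalization, a common sum, a fit of only the groups compared and the replicate block, and 0 to 3 leaving out single libraries, against 2. With the Xist term the WT count was 3, where Cd36 joined. With library weights the WT count was also 3, where Fabp5 joined (log2 difference -2.25, adjusted p = 0.0204, limma). In KO it was 0 with only the groups compared, where adjusted p (limma) was 0.0566 for Fabp1, 0.101 for Fabp5 and 0.0725 for Fabp7, and 1 to 3 leaving out single libraries, against 3. It was 2 where Fabp5 lost its call: with no filter, median-ratio scaling (adjusted p 0.0577, limma), quantile normalization (0.0561), a common sum (0.0546), the replicate block (0.0877) and the Xist term (0.0743). With the filter of 5 FPKM it was 2 because Fabp7 was not tested. Fabp7 drops out under the filter of 5 FPKM, and the fit of only the groups compared gives no interaction. No member was called between genotypes or in the interaction under any alternative.

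The cause of sign changes was not tested. With median-ratio scaling Slc27a2 became 0.070 in WT and 0.050 in KO, and Slc27a4 0.047 in KO. With quantile normalization Slc27a4 was 0.022 in KO, with a common sum Slc27a2 was 0.27 and Slc27a4 0.22 in KO, and with the Xist term Slc27a2 was 0.025 in KO. With library weights Slc27a4 was 0.020 in WT and Cd36 was -0.44 in KO. Leaving out single libraries, Slc27a2 ran from -0.14 to 0.20 in WT and from -0.33 to 0.15 in KO, Slc27a5 from -0.29 to 0.037 in WT, and Cd36 from -0.15 to 0.90 in KO. The common sum, which includes Rn7s1, moved the median of all genes by -0.089 in WT and 0.26 in KO.

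Over the whole table the alternatives that keep all libraries called 492 to 2248 genes in WT and 97 to 4140 in KO, and leaving out single libraries 382 to 1771 and 96 to 757. Replicate numbers did not pair the libraries: correlations of deviations ran from -0.33 to 0.44 for the same number and from -0.39 to 0.39 for different ones, and 2 of 15 libraries lay closest to a library of their own number. With the replicate block, 673 and 303 genes were called, and 1 and 2 members, in WT and KO.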
